A study of Homo sapiens with 6 samples.

Results

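The genes described here are 10 feedback regulators of MAP kinase signalling, the dual-specificity phosphatases DUSP1, DUSP4, DUSP5, DUSP6 and DUSP10 and the adaptor-like inhibitors SPRY1, SPRY2, SPRY4, SPRED1 and SPRED2. They were read at every probe set whose only gene symbol in the probe annotation is one of these names, which gave 22 of the 54675 probe sets on the array, and all 10 genes were represented. The study measured total RNA of MCF10A cells, an immortalised human line of mammary epithelium that does not form tumours, on Affymetrix arrays. It compared 3 arrays of MCF10A cells with C/EBPbeta-2, a protein isoform made from the transcription factor gene CEBPB, with 3 arrays of MCF10A cells alone, called control here. Both groups received no treatment and grew in the same medium with 5% horse serum, insulin, hydrocortisone, cholera toxin and 10 ng/ml epidermal growth factor (EGF), the ligand of the EGF receptor that feeds the ERK cascade. How C/EBPbeta-2 entered the cells, and whether the cells with it were a pool or 1 clone, is unstated in the sources used here. The replicates are called biological in the labels with no statement of what separated them, so the p-values speak of the spread among these arrays, which may be technical.

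MAP kinase cascades pass a signal from a receptor through RAS and a chain of kinases to ERK, or from stress and cytokine receptors to the p38 and JNK kinases. Active ERK enters the nucleus and induces, among many genes, its own inhibitors, so that RNA of several of these inhibitors is widely used as a readout of ERK activity. The DUSP proteins remove phosphate from both the threonine and the tyrosine that activate a MAP kinase, while Sprouty (SPRY) and SPRED proteins act further upstream, between the receptor, RAS and RAF. MCF10A cells depend on added EGF for growth, so the receptor at the head of this loop is stimulated in routine culture.

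The arrays were checked first. Log2 intensities of all tested probe sets correlated at 0.949 to 0.980 (Pearson's r) within groups and at 0.942 to 0.979 between them, across probe sets that are not independent replicates. C/EBPbeta-2 replicate 2 and control replicate 1 stood apart by the poly-A spike-in control RNA, at 3.85 and 3.98 (mean log2 intensity) against 7.21 to 8.25 on the other 4 arrays, and by an ACTB 3' minus 5' value of 1.32 and 1.48 against -0.04 to 0.64. The GAPDH 3' minus 5' value showed no such rise, at 0.22 and 0.12 on these 2 arrays against 0.21 to 0.32 on the other 4. The control probe sets of 18S ribosomal RNA read lowest on the same 2 arrays (5.62 and 8.05). They read highest on the first C/EBPbeta-2 array (12.19) and on control replicate 2 (12.17). Since each spike-in level holds both groups, differences are also given within it: 1 array against 1 at the low level and 2 against 2 at the high one. CEBPB did not check the labels, because at 212501_at it read 10.29, 10.50 and 11.38 on the C/EBPbeta-2 arrays and 11.27, 11.38 and 11.37 on the control arrays, and whether its probes lie in the introduced sequence was not given in the sources used here. Basal and general epithelial markers were bright: the 4 measured basal markers averaged 10.66 to 11.12 with C/EBPbeta-2 and 11.15 to 11.89 in control, and the 4 general ones 9.23 to 9.58 and 9.76 to 10.04. Limma called 2 of the 22 markers measured over all lists, where it called 0.263% of all genes. Both were lower with C/EBPbeta-2: the basal keratin KRT14 by a log2 difference of -3.00 (SE 0.34, adjusted p = 0.0347) and the adhesion protein CDH1 (E-cadherin) of -2.14 (SE 0.22, adjusted p = 0.0282). With 1 array left out the limma adjusted p of KRT14 was 0.0213 to 0.219, under the threshold only without C/EBPbeta-2 replicate 2, and that of CDH1 0.0617 to 0.167, while the differences were -3.36 to -2.70 and -2.28 to -1.94. The basal marker LAMB3 differed by 1.17 and was not called. The mean over the 6 arrays lay below every array median for 5 of 7 markers of fibroblasts, 2 of 4 of leukocytes and 2 of 3 of endothelium. The fibroblast gene DCN read 7.11 to 8.16 with C/EBPbeta-2 and 8.98 to 11.76 in control, highest on control replicate 1. The fibroblast list averaged 4.56 to 5.00 and 4.87 to 5.24. The leukocyte list averaged 4.50 to 4.75 and 4.33 to 4.44, with CD14 at 6.85 to 7.28 and 5.98 to 6.45 and the pan-leukocyte marker PTPRC at 3.11 to 3.63 over all arrays, and the endothelial list 3.92 to 4.02 and 3.93 to 4.31. The part of these markers in the results below was not tested.

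None of the 22 probe sets passed the test, although 4 of them separated the groups completely, and in all 4 the C/EBPbeta-2 arrays were the higher ones. Those were 1 probe set each of SPRY1, SPRY4, SPRED2 and DUSP5. Limma called 0 of 22 at an adjusted p under 0.05, where it called 0.0659% of the 54613 probe sets tested, and 0 of 10 genes when each gene was read at its brightest probe set, where it called 0.263% of 19775 genes. At an unadjusted p under 0.05 there were 4 of 22 probe sets, again SPRY1, SPRY4, SPRED2 and DUSP5, all higher with C/EBPbeta-2, beside 3.98% of all probe sets in either direction and 1.92% higher. The groups did not overlap in 4 of 22, beside 7.62% of all probe sets in either direction and 3.87% higher. By gene, the same 4 of 10 met either criterion, beside 5.4% of all genes at such a p (2.66% higher) and 8.63% without overlap (4.62% higher). The number at an unadjusted p under 0.05 rested on single arrays: it was 2 when C/EBPbeta-2 replicate 3 was left out, 2 without either of control replicates 1 and 3, and 9 without control replicate 2. The RNA comes from whole cultures, in which fewer cells of a type and less RNA per cell cannot be told apart.

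**Figure D1:**
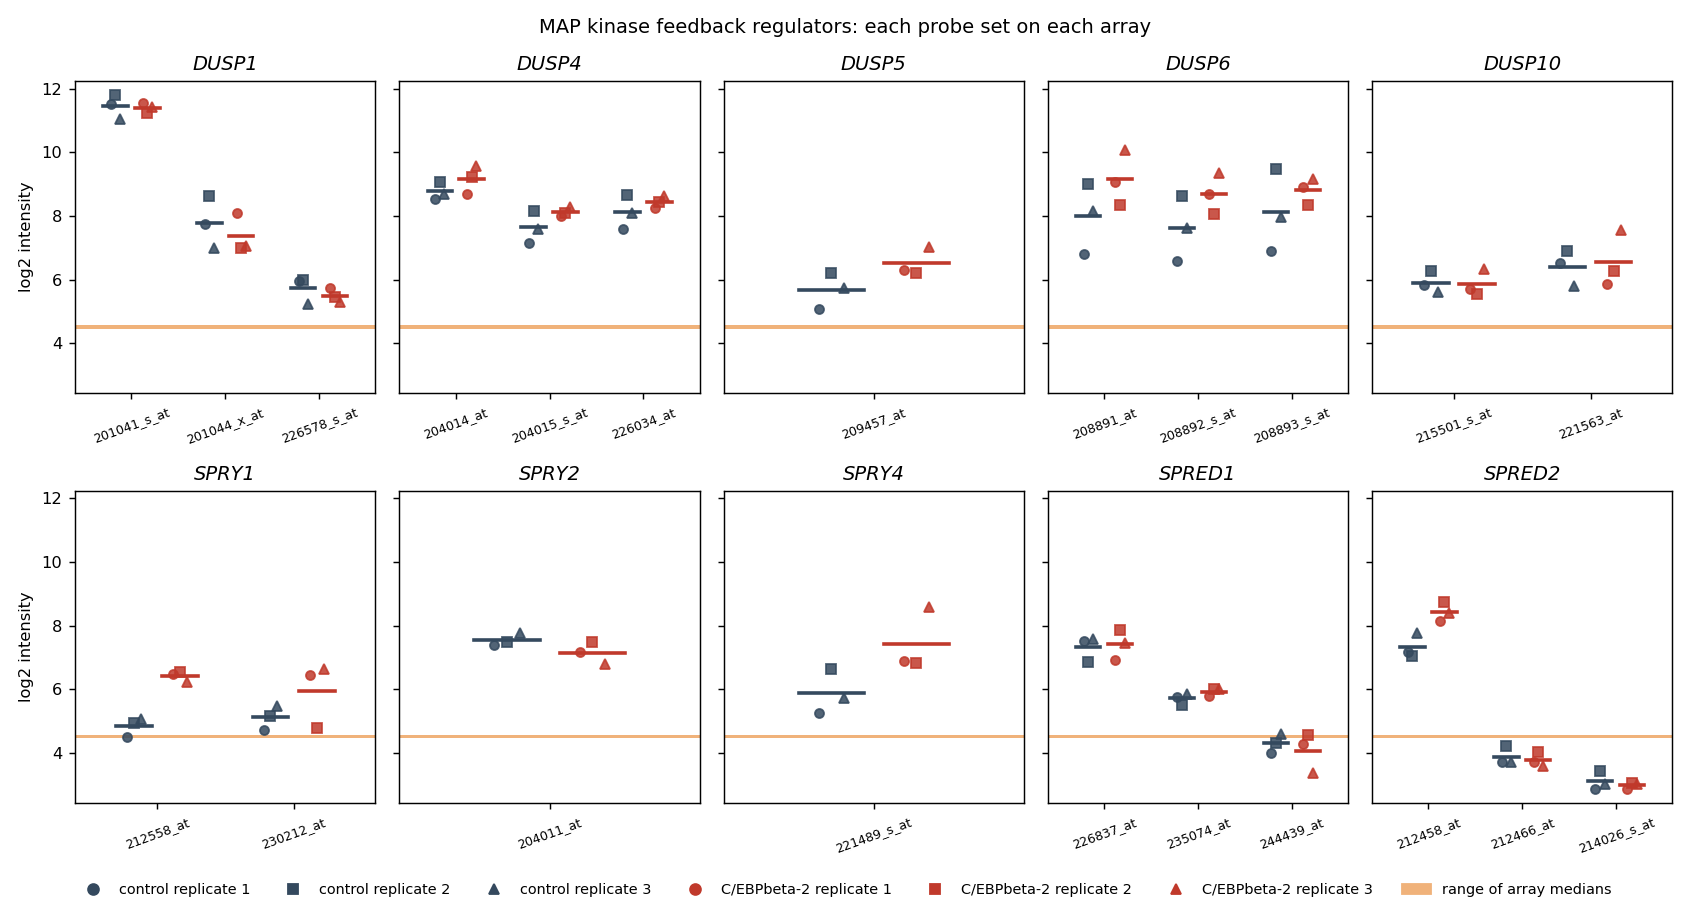
Log2 intensity of the 22 probe sets (x axis, by gene) on each of the 6 arrays; marker shape gives the replicate, colour the group, the short line the group mean and the band the range of the 6 array medians (4.46 to 4.56). SPRY1 212558_at shows 3 C/EBPbeta-2 arrays between 6.23 and 6.54 and 3 control arrays between 4.49 and 5.07, while the DUSP6 probe sets spread widely within both groups.

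The Sprouty proteins are taken up first. SPRY1 is a Sprouty protein that restrains RAS-ERK signalling downstream of growth factor receptors. At 212558_at, log2 intensities were 6.47, 6.54 and 6.23 with C/EBPbeta-2 and 4.49, 4.95 and 5.07 in control. The groups stood 1.16 apart at their closest, and the control values lay at the array medians or a little above them, where an intensity holds more background and a fold is less certain. The group means of 6.41 ± 0.16 and 4.84 ± 0.30 (SD, n = 3) differed by 1.58 (SE 0.20; 95% interval 1.09 to 2.06), a 2.98-fold ratio of C/EBPbeta-2 to control. This was the smallest p among the 10 genes (limma adjusted p = 0.1000 over all probe sets and 0.0556 over all genes, both over the 0.05 threshold). The difference was 2.04 at the low spike-in level and 1.34 at the high one. Over 18 alternatives by gene its adjusted p ran from 0.0374 to 0.389. Only array weights, which count arrays far from their group less, brought it under the threshold (0.0374), a setting under which 122 genes were called in all against 52.

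The second SPRY1 probe set, 230212_at, did not separate the groups. It read 6.46, 4.78 and 6.65 with C/EBPbeta-2 and 4.71, 5.17 and 5.48 in control. C/EBPbeta-2 replicate 2, 1 of the 2 arrays at the low spike-in level, read with the control arrays, and the other 2 lay above all of them. The difference was 0.84 (SE 0.51, limma adjusted p = 1.00), at 0.06 within the low level and 1.23 within the high one, and 1.44 without C/EBPbeta-2 replicate 2 but 0.50 without replicate 3.

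SPRY4, a Sprouty protein whose RNA is a common marker of ERK output, was read at its only probe set, 221489_s_at. By its _s_at suffix, this probe set may share probes with related transcripts. It gave 6.89, 6.83 and 8.58 with C/EBPbeta-2 and 5.27, 6.65 and 5.73 in control. The groups did not overlap, but C/EBPbeta-2 replicate 3 lay 1.69 above the next array and control replicate 2 lay only 0.17 below the lowest C/EBPbeta-2 array. The means of 7.43 ± 0.996 and 5.88 ± 0.70 (SD, n = 3) differed by 1.55 (SE 0.56; interval 0.20 to 2.90; limma adjusted p = 1.00 over probe sets, 0.766 over genes). The differences within the low and high spike-in levels were nearly equal, at 1.56 and 1.55. Without C/EBPbeta-2 replicate 3 the difference was 0.97.

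SPRY2, which shares the conserved cysteine-rich end of the family, ran the other way in its mean. Its only probe set, 204011_at, read 7.18, 7.48 and 6.78 with C/EBPbeta-2 and 7.38, 7.50 and 7.76 in control. The groups overlapped, since C/EBPbeta-2 replicate 2 lay above control replicate 1. The difference was -0.40 (SE 0.22; interval -0.93 to 0.13; limma adjusted p = 1.00), and it was 0.10 at the low spike-in level and -0.65 at the high one. The intervals of SPRY1 212558_at and of SPRY4 lay above 0, and those of SPRY1 230212_at and SPRY2 crossed it; a difference between genes was not tested.

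SPRED proteins carry the same cysteine-rich end behind a docking domain and bind neurofibromin, the RAS inactivator that they bring to the membrane. SPRED2 was read brightest at 212458_at, with 8.16, 8.73 and 8.41 with C/EBPbeta-2 and 7.17, 7.05 and 7.75 in control. All C/EBPbeta-2 arrays lay above all control arrays, by 0.40 at the closest. The means of 8.44 ± 0.29 and 7.33 ± 0.38 (SD, n = 3) differed by 1.11 (SE 0.25; interval 0.51 to 1.71), a 2.16-fold ratio with a limma adjusted p of 0.459 over probe sets and 0.282 over genes. It was 1.56 at the low spike-in level and 0.88 at the high one, and 0.96 to 1.33 when 1 array was left out. The other 2 SPRED2 probe sets, 212466_at and 214026_s_at, had group means of 2.99 to 3.89, below every array median, and differed by -0.11 and -0.12. They read low in both groups, and the difference of SPRED2 rests on 1 of its 3 probe sets.

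SPRED1, the family member whose loss causes Legius syndrome, showed small differences at all 3 of its probe sets. The brightest, 226837_at, read 6.94, 7.88 and 7.44 with C/EBPbeta-2 and 7.53, 6.86 and 7.57 in control. The groups were interleaved, and the difference was 0.10 (SE 0.31; interval -0.64 to 0.84; limma adjusted p = 1.00). 235074_at differed by 0.21 (interval -0.18 to 0.61), and 244439_at, whose group means of 4.07 and 4.30 lay below every array median, by -0.22.

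The RefSeq promoter table (GRCh38.p14) gives 250 bases before to 50 bases after each annotated start. From it, 13 windows for 8 of the 10 genes were kept. No window was kept for DUSP4 or DUSP5, so their promoters were not searched. The counts of member windows below are over the kept windows only, while the percentages are over all windows in the table. Windows of SPRY1, SPRY4 and SPRED2, the genes with kept windows whose arrays separated by group, are shown 5′ to 3′ on the gene's strand. Capitals mark matches, on either strand, to the core of a C/EBP site (TTGCNNAA), an AP-1 site (TGANTCA), the short form of a cyclic AMP response element (TGACGT), an ETS site (CCGGAA) or a CArG box of serum response factor. No match in these 5 windows overlapped another.
SPRY1, chr4:123396545-123396844, plus strand: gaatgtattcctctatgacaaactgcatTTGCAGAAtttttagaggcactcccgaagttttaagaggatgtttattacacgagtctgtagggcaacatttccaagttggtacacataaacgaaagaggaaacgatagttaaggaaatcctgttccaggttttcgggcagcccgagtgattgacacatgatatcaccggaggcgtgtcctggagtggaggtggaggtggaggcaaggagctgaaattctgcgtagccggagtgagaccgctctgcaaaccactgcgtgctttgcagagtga
SPRY1, chr4:123398136-123398435, plus strand: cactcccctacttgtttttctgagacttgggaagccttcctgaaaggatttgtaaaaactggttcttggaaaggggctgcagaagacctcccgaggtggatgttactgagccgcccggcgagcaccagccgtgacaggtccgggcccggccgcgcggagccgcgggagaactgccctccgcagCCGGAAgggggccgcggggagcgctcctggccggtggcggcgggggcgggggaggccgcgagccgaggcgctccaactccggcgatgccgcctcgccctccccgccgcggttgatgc
SPRY4, chr5:142324198-142324497, minus strand: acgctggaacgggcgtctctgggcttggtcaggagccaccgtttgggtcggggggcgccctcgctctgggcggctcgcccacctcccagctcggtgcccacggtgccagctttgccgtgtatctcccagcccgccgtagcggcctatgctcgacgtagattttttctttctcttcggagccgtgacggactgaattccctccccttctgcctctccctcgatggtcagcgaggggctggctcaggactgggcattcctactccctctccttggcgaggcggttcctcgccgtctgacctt
SPRED2, chr2:65366729-65367028, minus strand: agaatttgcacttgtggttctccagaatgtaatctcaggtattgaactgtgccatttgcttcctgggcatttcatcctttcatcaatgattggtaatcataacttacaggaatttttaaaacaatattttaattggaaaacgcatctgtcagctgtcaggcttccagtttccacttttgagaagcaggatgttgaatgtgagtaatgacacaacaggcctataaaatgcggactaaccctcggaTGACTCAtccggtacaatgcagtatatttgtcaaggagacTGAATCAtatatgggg
SPRED2, chr2:65432550-65432849, minus strand: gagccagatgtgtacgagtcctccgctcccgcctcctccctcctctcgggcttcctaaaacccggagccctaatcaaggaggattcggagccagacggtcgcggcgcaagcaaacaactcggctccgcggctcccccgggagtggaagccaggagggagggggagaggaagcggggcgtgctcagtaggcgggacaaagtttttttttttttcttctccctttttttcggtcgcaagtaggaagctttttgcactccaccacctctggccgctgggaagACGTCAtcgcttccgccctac
A C/EBP core was found in 1 of the 13 windows, the first of SPRY1, where it starts at base 29 of 300, beside 10.5% of all 35116 windows in the table. The second SPRY1 window held an ETS match at base 184, and 17.2% of all windows held one. The first SPRED2 window held AP-1 matches at bases 245 and 285 (7.71% of all windows), the second a short response element at base 280 (7.98%), and the SPRY4 window held no match. Among the other genes, DUSP1 held short response elements and SPRY2 an ETS match, and 0 of 13 windows held a CArG box (1.29% of all). A match in letters describes the sequence and shows no binding.

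The phosphatases come next, those that act mainly on ERK before those of wider range. DUSP6, also called MKP-3, is a cytoplasmic phosphatase selective for ERK. At its brightest probe set, 208891_at, it read 9.06, 8.35 and 10.08 with C/EBPbeta-2 and 6.81, 9.01 and 8.15 in control. C/EBPbeta-2 replicate 3 was the highest array and control replicate 1 the lowest, while control replicate 2 lay among the C/EBPbeta-2 arrays. The difference of 1.18 had a wide interval of -0.38 to 2.73 (SE 0.65; limma adjusted p = 1.00). It was 1.54 at the low spike-in level and 0.99 at the high one, with 0.59 without control replicate 1, 0.72 without C/EBPbeta-2 replicate 3 and 1.69 without control replicate 2.

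The other 2 DUSP6 probe sets gave the same order of the control arrays, with replicate 2 at the top and replicate 1 at the bottom. 208892_s_at differed by 1.09 (SE 0.56) and 208893_s_at by 0.69 (SE 0.63), neither called. Without control replicate 1 they differed by 0.58 and 0.07. On 208893_s_at control replicate 2 read 9.48, above all 3 C/EBPbeta-2 arrays (8.36 to 9.17), and the difference was 1.37 without it. The spread within the control group was 1.01 to 1.30 (SD) at these 3 probe sets, 3 or more times that of SPRY1 212558_at.

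DUSP5, a nuclear phosphatase selective for ERK, was read at 1 probe set, 209457_at, with 6.29, 6.22 and 7.02 with C/EBPbeta-2 and 5.09, 6.20 and 5.75 in control. The groups did not overlap, but the lowest C/EBPbeta-2 array and control replicate 2 were only 0.02 apart. The means of 6.51 ± 0.44 and 5.68 ± 0.56 (SD, n = 3) differed by 0.83 (SE 0.35), with a lower bound of the interval at 0.00065 and a limma adjusted p of 1.00 over probe sets and 0.924 over genes. It was 1.14 at the low spike-in level and 0.68 at the high one. Without control replicate 1 it was 0.53 and without C/EBPbeta-2 replicate 3 it was 0.58, and neither reached an unadjusted p under 0.05 in limma (0.143 and 0.152).

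DUSP4, also called MKP-2, is a nuclear phosphatase that acts on ERK, JNK and p38. Its brightest probe set, 204014_at, read 8.68, 9.22 and 9.59 with C/EBPbeta-2 and 8.54, 9.08 and 8.70 in control. The groups overlapped, with control replicates 2 and 3 above the lowest C/EBPbeta-2 array. All 3 probe sets were higher on average with C/EBPbeta-2, by 0.39, 0.49 and 0.34 (SE 0.27 to 0.29), and none was called (limma adjusted p = 1.00). Without control replicate 2 these differences were 0.54, 0.75 and 0.61, and without control replicate 1 they were 0.28, 0.24 and 0.08. Without C/EBPbeta-2 replicate 3 that of 204014_at was 0.18.

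DUSP1, or MKP-1, is an immediate-early phosphatase with a preference for p38 and JNK, and glucocorticoids such as the hydrocortisone of the medium are known to induce it. At 201041_s_at it read 11.56, 11.23 and 11.44 with C/EBPbeta-2 and 11.51, 11.80 and 11.04 in control. The C/EBPbeta-2 arrays lay inside the range of the control arrays. The difference was -0.04 (SE 0.23; interval -0.59 to 0.50; limma adjusted p = 1.00). The other 2 probe sets, 201044_x_at and 226578_s_at, differed by -0.41 and -0.23 and were not called (SE 0.48 and 0.25). By their _s_at or _x_at suffix, all 3 DUSP1 probe sets may share probes with related transcripts.

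DUSP10, or MKP-5, acts on p38 and JNK rather than on ERK. Its brighter probe set, 221563_at, read 5.85, 6.29 and 7.56 with C/EBPbeta-2 and 6.52, 6.89 and 5.79 in control. C/EBPbeta-2 replicate 3 alone exceeded the control arrays. The difference was 0.17 (SE 0.49; limma adjusted p = 1.00), and -0.33 without that array. The other probe set, 215501_s_at, differed by -0.03 (SE 0.27).

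**Figure D2:**
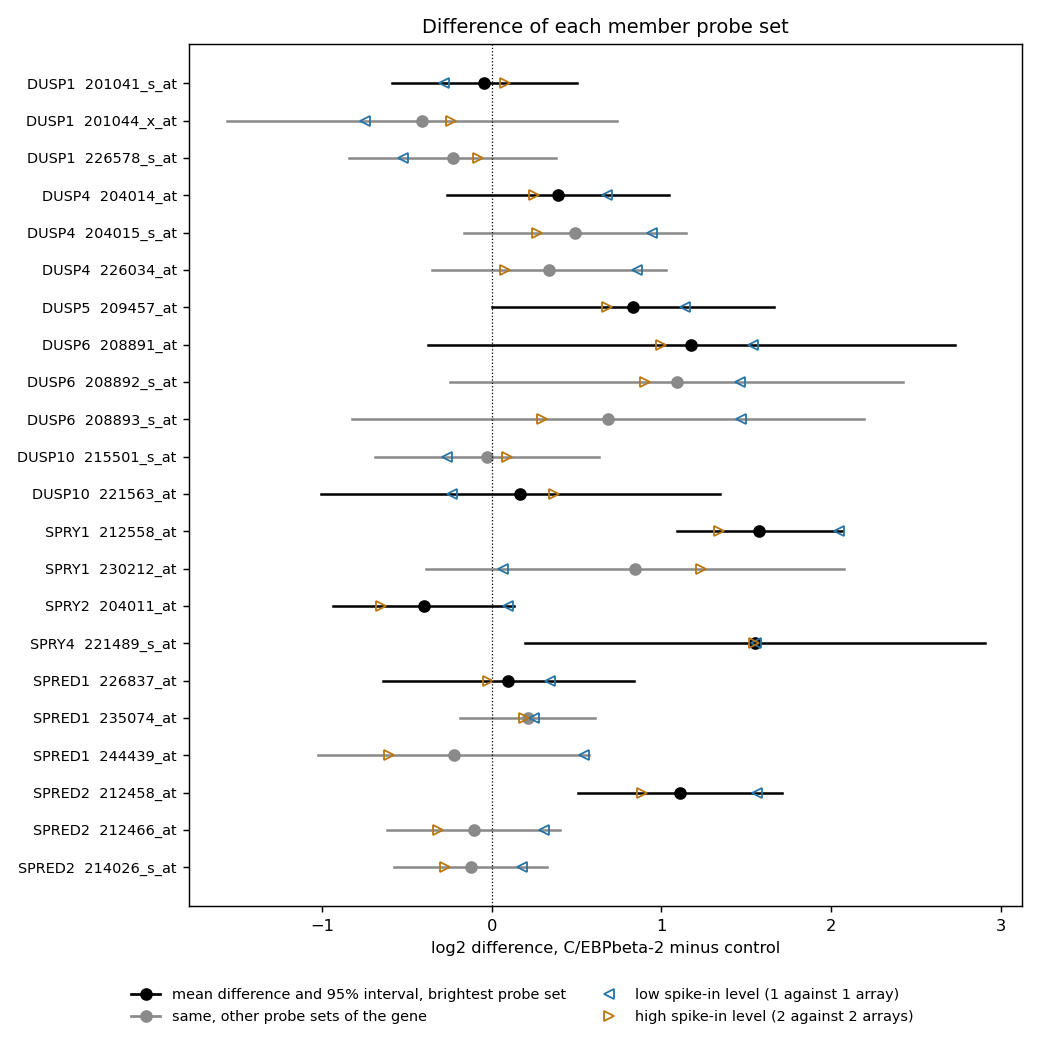
Log2 difference (x axis, C/EBPbeta-2 minus control) of each of the 22 probe sets (y axis), with the 95% interval of the limma fit, black for the brightest probe set of a gene and grey for others; triangles give the difference within the low (1 against 1 array) and the high (2 against 2) spike-in level. The unadjusted intervals of SPRY1 212558_at (1.09 to 2.06), SPRED2 212458_at (0.51 to 1.71), SPRY4 (0.20 to 2.90) and DUSP5 lie above 0, and all others cross it.

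Set side by side, the brightest probe sets were higher on average with C/EBPbeta-2 for 8 of the 10 genes and lower for DUSP1 and SPRY2. Their median difference was 0.61, beside 0.01 over all 19775 genes, and it ran from 0.38 to 0.79 when 1 array was left out. It was 0.91 at the low spike-in level and 0.52 at the high one, and 0.35 when each gene was read as the mean of its probe sets. For 6 of the 10 genes the difference was above 0 at both spike-in levels; these were DUSP4, DUSP5, DUSP6, SPRY1, SPRY4 and SPRED2. Over all 22 probe sets the sign was the same at both levels for 14 and opposite for 8. Where a gene had more than 1 probe set (7 genes), their mean differences were of unlike sign for 3, DUSP10, SPRED1 and SPRED2.

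At their brightest probe sets, the genes also differed in which arrays carried the difference. Control replicate 1 was the lowest of the 6 arrays for 5 of the 10 genes, beside 18.7% of all genes, and C/EBPbeta-2 replicate 3 the highest for 5, beside 13.2% of all genes. In DUSP4, DUSP5, DUSP6 and SPRY4 both held at once. In SPRY1 and SPRED2 the highest array was C/EBPbeta-2 replicate 2 instead, and the 3 C/EBPbeta-2 arrays lay close together (SD 0.16 and 0.29, against 0.44 to 0.996 for those 4 genes). This split did not hold at all other probe sets. SPRY1 230212_at was highest on C/EBPbeta-2 replicate 3 and lowest on control replicate 1, with a C/EBPbeta-2 SD of 1.03. The C/EBPbeta-2 SD was 0.15 at DUSP4 204015_s_at and 0.19 at DUSP4 226034_at. Relative to each gene's own mean, the median over the 10 genes stood at 0.61 for C/EBPbeta-2 replicate 3 and at -0.57 for control replicate 1, and between -0.36 and 0.16 on the other 4 arrays.

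**Figure D3:**
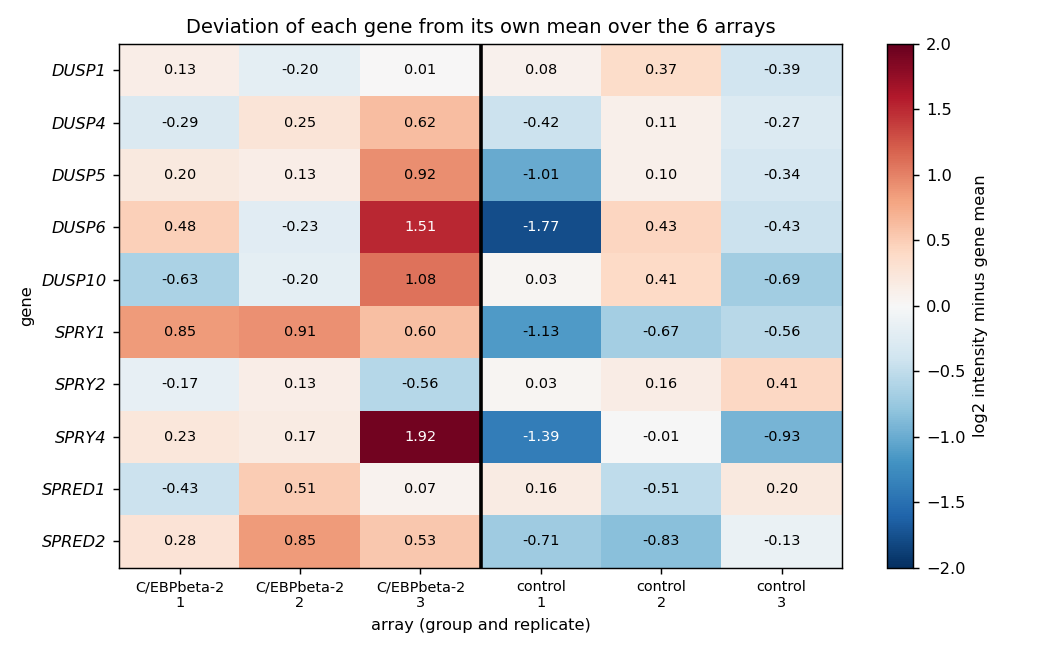
Log2 intensity of the brightest probe set of each gene (rows) on each array (columns), minus that gene's mean over the 6 arrays; red is above and blue below the mean. SPRY1, SPRED2 and SPRY4 are above their mean on all 3 C/EBPbeta-2 arrays and below it on all 3 control arrays, SPRY4 by very little on control replicate 2 (-0.0051). DUSP6 and SPRY4 lie farthest from their mean on C/EBPbeta-2 replicate 3 (1.51 and 1.92) and control replicate 1 (-1.77 and -1.39).

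Other genes of the pathway were read at 1 probe set a gene, in lists chosen by role but with earlier results of these data known. Among 13 genes induced by ERK, 12 were higher on average with C/EBPbeta-2 and 1 lower, where 10259 of all 19775 genes were higher. Some of the 12 lay near 0, as EPHA4 (0.00041), IER2 (0.060) and EGR3 (0.071) did. The sign of these and of ETV5 and CCND1 turned in some fits with 1 array left out. EPHA4 and EGR3 also had group means below every array median. Limma called 0 of the 13, and 3 reached an unadjusted p under 0.05, all higher (2.66% of all genes were so). The 3 were PHLDA1, a pleckstrin-like protein used as an ERK marker (1.35, SE 0.54, adjusted p = 0.871), the immediate-early gene IER3 (1.34, SE 0.55, adjusted p = 0.895) and the ephrin receptor EPHA2 (0.83, SE 0.22, adjusted p = 0.439). The median of this list was 0.43. The arrays followed the order seen in DUSP6 and SPRY4: 10 of the 13 genes were highest on C/EBPbeta-2 replicate 3 and 7 were lowest on control replicate 1.

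PHLDA1 read 9.16, 8.66 and 10.27 with C/EBPbeta-2 and 7.08, 8.52 and 8.43 in control. EPHA2 read 8.60, 8.42 and 8.96 and, in control, 7.56, 8.14 and 7.78. Neither gene's groups overlapped, whereas for IER3 control replicate 2 (11.07) lay above C/EBPbeta-2 replicate 2 (10.80). JUNB, an AP-1 subunit, was the 1 gene lower on average, by -0.10 (-0.34 to 0.12 when 1 array was left out).

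Other MAP kinase phosphatases had a median of 0.04 over 8 genes, with 0 called. DUSP2, a nuclear phosphatase known best from lymphocytes, reached an unadjusted p under 0.05, reading 5.39, 5.27 and 5.11 against 4.84, 4.80 and 4.91 in control (difference 0.41, SE 0.15, adjusted p = 0.754). Its groups did not overlap, although its levels were low. DUSP16 differed by 0.48 and DUSP7 by 0.38, both not called.

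Among 12 measured regulators of the cascade outside these families, of 14 listed, limma called 0 and 0 reached an unadjusted p under 0.05. Their median was 0.07. The largest difference was in ERRFI1, a feedback inhibitor of the EGF receptor itself (0.75, adjusted p = 1.00), followed by RASAL2, a RAS inactivator (0.52), and the ERK-binding protein PEA15 (0.30).

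The kinases, adaptors and exchange factors that carry the signal from the EGF receptor to ERK differed little. Of 16 measured genes (21 listed) none was called by limma, 0 had an unadjusted p under 0.05, and they lay between -0.29 (MAP2K1, the kinase that activates ERK) and 0.33 (RPS6KA2, a kinase downstream of ERK), with a median of 0.06. SOS2, an exchange factor of RAS, differed by 0.31. EGFR, the receptor for the EGF in the medium, differed by 0.05 (SE 0.31).

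Of 11 measured genes of the p38 and JNK cascades, of 14 listed, limma called 0, and 4 reached an unadjusted p under 0.05, 3 higher and 1 lower, beside 5.4% of all genes in either direction. Those higher with C/EBPbeta-2 were MAPK13, a p38 isoform of epithelia (0.79, adjusted p = 0.923), JUN, the AP-1 subunit that JNK phosphorylates (0.69, adjusted p = 0.895), and MAPKAPK2, a kinase downstream of p38 (0.58, adjusted p = 0.841). MAPK10, a JNK isoform known mainly from neurons, was lower by 0.76 on average (difference -0.76, SE 0.22, adjusted p = 0.513), at 4.78, 5.31 and 5.35 with C/EBPbeta-2 and 6.03, 6.03 and 5.66 in control. These counts and medians describe the lists, and no test of a list was made.

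**Figure D4:**
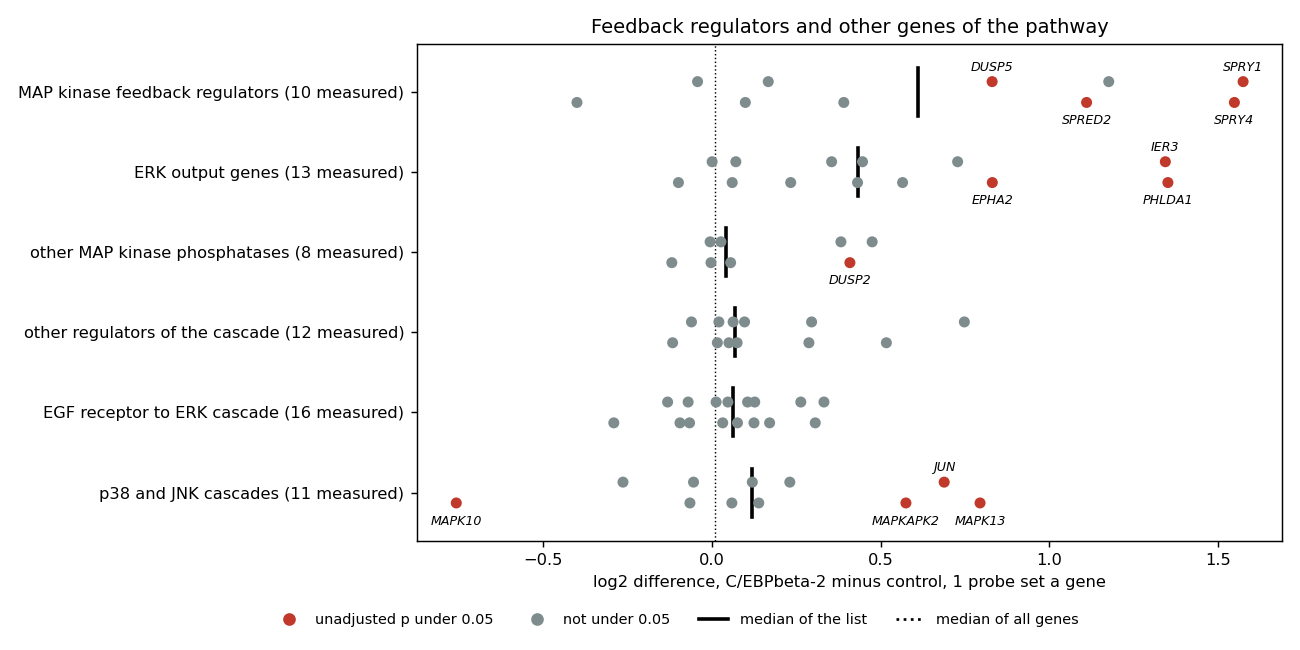
Log2 difference (x axis, C/EBPbeta-2 minus control) of each measured gene, 1 point a gene, in the feedback regulators and 5 other lists (y axis); red points have an unadjusted p under 0.05, thick lines are list medians and the dotted line is the median of all genes (0.01). The medians of the feedback regulators (0.61) and of the ERK output genes (0.43) lie to the right of the other 4 lists (0.04 to 0.12).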

How the data were processed

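RNA was measured on 6 Affymetrix arrays, 3 a group. The authors deposited 1 intensity for each array at every probe set, made with RMA per the submitters' processing notes, with no version or settings given; they were linear (4.17 to 17825) and gave 0 missing values. Values were log2-transformed here without a pseudocount or renewed normalization, and detection calls were not used. The 62 manufacturer's controls were set aside. Genes were named only where the annotation gives 1 symbol, and read at their brightest probe set by the mean of the 6 arrays. Limma 3.58.1 (lmFit, eBayes; R 4.3.3) was fitted on all 54613 probe sets as C/EBPbeta-2 minus control, two-sided, with Benjamini-Hochberg adjustment over all probe sets or all genes and calls at 0.05. SE and intervals are from this fit and unadjusted for number. It was tested on simulated data. Alternatives left out each array, changed scaling, filter, prior, weights or blocks. The number of arrays limits the precision. The members and lists were chosen with earlier results of these data known. Named were all members and, of each other list, genes at an unadjusted p under 0.05 and otherwise those with the 3 largest differences. CCND1, CD14, CDH1, DCN, DUSP7, DUSP16, EGFR, EGR3, EPHA4, ETV5, IER2, JUNB, KRT14, LAMB3 and PTPRC were named after their values were seen. List members not measured were not analysed here. Sequences are from RefSeq. Plots used Python 3.11.15 with matplotlib 3.10.9.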

Additional observations from a re-analysis of the deposited data

How the results depend on the processing

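Limma called 0 member probe sets under any of 15 alternatives and 0 member genes under 17 of 18; with array weights it called 1 gene, SPRY1. The number at an unadjusted p under 0.05, 4 as reported (3.98% of all probe sets), was 2 to 9 when 1 array was left out (3.24% to 5.29% of all, 5.29% for the 9), 9 with array weights (6.23%), 7 with a term for the spike-in level (5.18%) and 7 without the 2 arrays with the highest 18S signal (5.23%), which was chosen after seeing the data, as was leaving out the 2 low spike-in arrays. The number whose groups did not overlap, also 4 (7.62% of all), was 4 to 9 when 1 array was left out (14.4% to 19.4%, 19.4% for the 9), 10 without the 2 low spike-in arrays (23% of all probe sets) and 11 without the 2 highest 18S arrays (29.7%); fewer arrays separate more often by construction. The median over the member genes ran from 0.35 to 0.95 over all alternatives.

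No member difference was called, and some turned sign; the cause was not tested. When 1 array was left out, DUSP1 ran from -0.25 to 0.13 (201041_s_at) and -0.81 to 0.011 (201044_x_at), DUSP10 from -0.26 to 0.16 (215501_s_at) and -0.33 to 0.52 (221563_at), SPRED1 from -0.13 to 0.34 (226837_at) and -0.46 to 0.12 (244439_at), and SPRED2 from -0.23 to 0.066 (212466_at) and -0.24 to 0.036 (214026_s_at). With array weights DUSP1 201041_s_at was 0.12, DUSP10 215501_s_at 0.25 and SPRED1 226837_at -0.025. Without the low spike-in arrays these 3 were 0.076, 0.091 and -0.024. Without the highest 18S arrays DUSP1 201041_s_at was 0.056, DUSP10 215501_s_at 0.24, SPRED2 212466_at 0.094 and SPRED2 214026_s_at 0.089. At the low spike-in level DUSP10 221563_at was -0.23, SPRY2 0.10, SPRED1 244439_at 0.54, SPRED2 212466_at 0.31 and SPRED2 214026_s_at 0.18.

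Same-numbered arrays of the groups deviated together in 1 of 3 pairs (r = -0.45, -0.55 and 0.42 across probe sets). By these deviations 2 of 6 arrays correlated best with their own number. Such values cannot tell whether same-numbered samples were handled together, since the 2 low spike-in arrays bear different numbers. With the replicate block 3 member probe sets had an unadjusted p under 0.05 in limma, which called 0 of all probe sets. Low intensity limits SPRY1, DUSP2 and the dim SPRED1 and SPRED2 probe sets.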
